A study of Homo sapiens with 34 samples.

Results

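The comparison described here set human pluripotent stem cells after 1 day of the APS treatment, the protocol named for the anterior primitive streak, against undifferentiated control cells of the same line. It rests on 4 RNA-seq libraries of the 34 in the series, 2 of APS at 24 h and 2 of the control, chosen by their labels alone and described across all genes. The line was ESI017, an established human embryonic stem cell line, wild type in all 4 libraries. The study's methods name Matrigel for routine culture and Matrigel or laminin for differentiation plates. APS cells received activin A at 30 ng/ml, CHIR99021 at 4 µM and bFGF at 20 ng/ml for 24 h with no added BMP4. Activin A signals through the Nodal receptors, bFGF is a fibroblast growth factor, and CHIR99021 inhibits GSK3 and so stabilises β-catenin, the effector of canonical Wnt signalling. Control cells stayed in mTeSR PLUS, the maintenance medium, for 48 h by the labels. The study's supplementary legends give another time for imaging controls and none for the RNA-seq control. The APS factors were given in E6, a defined medium that lacks the growth factors of the maintenance medium, so the 3 factors, the change of medium and the time in culture cannot be told apart in this contrast. Each library came from RNA of a whole dish, so fewer cells of a type and less RNA per cell cannot be told apart either. The study calls the libraries of a group biological replicates without describing their cultures. The p-values rest on the spread between libraries of a group, estimated over all 34 libraries and not from these 4 alone.

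The primitive streak is the site where pluripotent epiblast cells of the embryo leave the epithelium and become mesoderm and definitive endoderm. Wnt and Nodal signals switch on the T-box genes TBXT and EOMES and the homeobox gene MIXL1 there, while the pluripotency genes are shut down. Higher Nodal activity goes with anterior streak, the source of endoderm and axial mesoderm, and BMP with posterior streak, the source of lateral and extraembryonic mesoderm.

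The libraries held 21140822 and 21846785 estimated counts for APS and 22145632 and 18805219 for the control. Values are given below as CPM, a gene's count scaled to one common library total, replicate 1 before replicate 2, and differences as log2 fold changes of APS over control with the SE of the fit, where n = 2 libraries a group. A count of 0 in both control libraries allows a level of up to 0.135 and 0.16 CPM, which covers counting error only. Where a group had no count, the fold is given as a bound against 3 counts over the group, and where it had 1 to 3 counts, as the ratio of counts with its 95% exact counting interval. APS replicate 2 stood apart from replicate 1 in 3 gene groups. The 46 cytosolic ribosomal protein genes summed to 34868 and 21037 CPM in APS and to 33302 and 33264 CPM in the control, and 46 of 46 were lower in APS replicate 2. The 13 mitochondrially encoded genes summed to 45675 and 76880 CPM in APS and to 44062 and 52998 CPM in the control, and were also higher in replicate 2 in the day 1 treatments DE(a), at 35493 and 79855 CPM, and MPS, at 45824 and 61860 CPM. Nuclear genes for oxidative phosphorylation subunits summed to 4019 and 2848 CPM in APS and to 4629 and 4752 CPM in the control. The part of this difference between the APS libraries in the results below was not tested, and the counts that lead the text are also given without each of them.

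SP5, DKK1 and CDX2 went from near 0 in the control to clearly measured levels in APS, and each holds a TCF/LEF word, the short sequence read by the DNA-binding partners of β-catenin, shortly before its start. They are shown because Wnt activation by CHIR99021 is part of the treatment, and were chosen after their values were seen. SP5 is a transcription factor and DKK1 a secreted Wnt antagonist, both of them feedback genes of Wnt signalling, and CDX2 is a homeobox gene of posterior identity. The sequences are the 250 bases before the start from RefSeq (GRCh38.p14), 5′ to 3′ on the gene's strand, with CTTTGAT and its variant CTTTGAA, or the reverse complement of either, in capitals. The SP5 window is chr2:170715087-170715336 (plus strand), with words 148, 109 and 84 bases before the start. The DKK1 window is chr10:52314031-52314280 (plus strand), with a word 95 bases before the start, and the CDX2 window is chr13:27969316-27969565 (minus strand), with a word 238 bases before it.
SP5: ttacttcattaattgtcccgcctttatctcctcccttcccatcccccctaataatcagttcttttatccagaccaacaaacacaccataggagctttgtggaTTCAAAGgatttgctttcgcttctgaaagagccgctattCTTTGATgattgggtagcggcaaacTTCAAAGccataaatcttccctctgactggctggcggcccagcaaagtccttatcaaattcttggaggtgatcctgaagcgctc
DKK1: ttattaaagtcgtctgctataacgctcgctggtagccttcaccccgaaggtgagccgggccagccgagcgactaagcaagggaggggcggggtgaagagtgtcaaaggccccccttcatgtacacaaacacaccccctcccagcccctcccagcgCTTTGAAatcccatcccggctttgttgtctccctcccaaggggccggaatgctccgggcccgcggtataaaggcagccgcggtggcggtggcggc
CDX2: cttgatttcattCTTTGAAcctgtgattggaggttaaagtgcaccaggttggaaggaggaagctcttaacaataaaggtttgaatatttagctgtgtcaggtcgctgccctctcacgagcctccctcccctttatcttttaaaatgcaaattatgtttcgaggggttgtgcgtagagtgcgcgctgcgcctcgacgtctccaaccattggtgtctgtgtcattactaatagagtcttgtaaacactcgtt
Windows were examined for 25 genes called higher in the Wnt feedback, general streak and posterior streak lists. A TCF/LEF word stood in 7 of them, those of MIXL1, SP8, HAND1 and HOXB1 beside the 3 shown, and in none of the other 18, which include TBXT, EOMES, LEF1, NODAL and EVX1. Among all 27305 RefSeq promoters of this length a share of 6.03% held one on either strand, against 4.92% of the 1809 promoters of genes higher in APS, 3.09% of the 1489 of genes lower and 3.82% of the 8974 of genes tested and not called. Other words searched on both strands were a T-box word (AGGTGTGA), in 0.787% of all promoters and 0.663% of those of higher genes, FOXH1 words (AATCCACA and AATACACA), in 1.33% and 0.829%, and GATA words (AGATAA and TGATAA), in 14.9% and 8.46%. Called members of these lists that had no window here, among them AXIN2, NKD1, LGR5 and NOTUM, were not examined. For TBXT, MIXL1 and EOMES the RefSeq start lies inside the gene interval printed below, so their windows overlap that interval. These are descriptions of letters in a window and not of binding.

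After 1 day of APS, 4389 of 17895 genes tested (24.5%) differed from the control at an adjusted p under 0.05 (edgeR's quasi-likelihood test, Benjamini-Hochberg adjustment over all genes tested). Of these, 2429 (13.6% of genes tested) were higher and 1960 (11%) lower in APS, and the median log2 fold change over all genes was 0.02. Without APS replicate 2 the test called 3084 genes, 1766 higher and 1318 lower, and without APS replicate 1 it called 3423, 1976 higher and 1447 lower. In 4387 of the 4389 called genes the APS and control libraries did not overlap, as was also so in 10602 (59.2%) of all genes tested. The response was lopsided towards gain at its far end. Where the higher group averaged 10 CPM or more, 397 rose and 292 fell by more than 4-fold, 141 rose and 49 fell by more than 16-fold, and 60 rose and 8 fell by more than 64-fold. No count at all was found in the control for 109 of the higher genes, and none in APS for 37 of the lower genes.

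**Figure D1:**
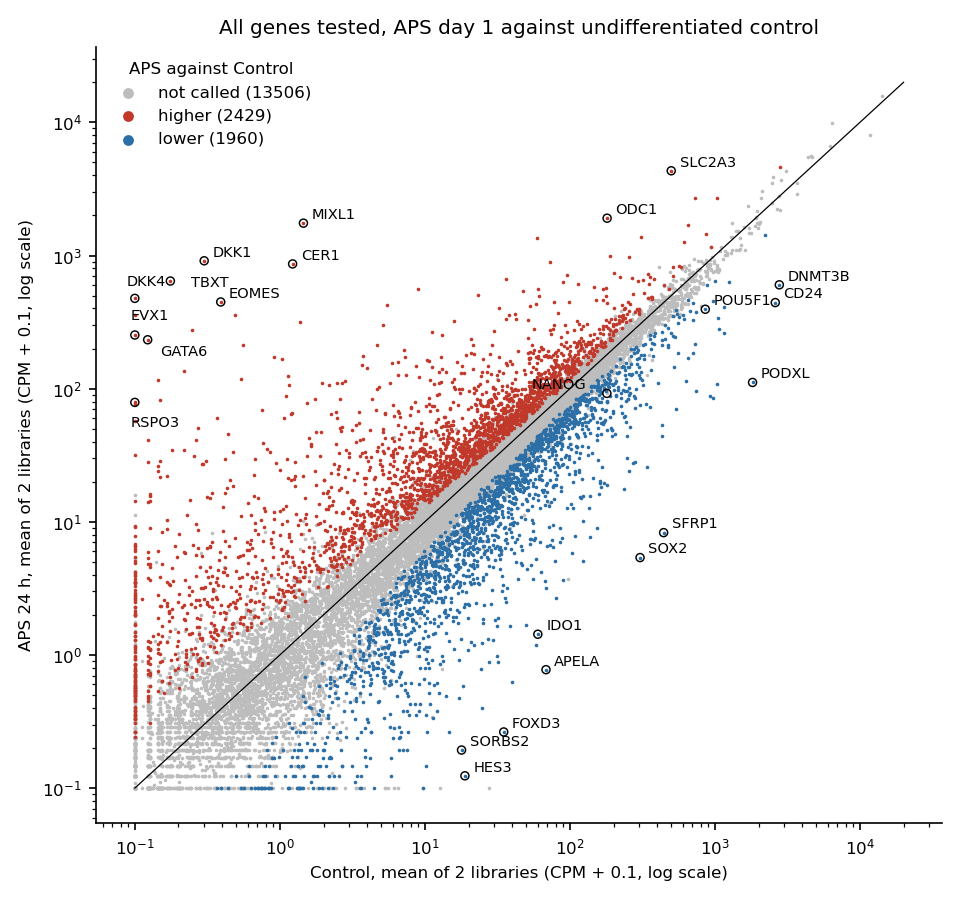
Mean CPM of each gene tested in the 2 control libraries (horizontal) and the 2 APS libraries (vertical), with 0.1 added and both axes on a log scale. Red points are the 2429 genes higher in APS, blue points the 1960 lower, grey points were not called, circles mark genes named in the text, and the line is equality. The farthest points from the line lie at the upper left, at or near 0 in the control.

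Among the 15 largest rises by fold were DKK4, SP5, EVX1, RSPO3, CDX1, GATA4 under each of its identifiers, TBXT, GATA6, DKK1, WNT3 under its less abundant identifier, ANKRD1, FGF17 and EOMES. These are secreted Wnt regulators (DKK4, DKK1, RSPO3, WNT3), an FGF ligand (FGF17), transcription factors of the streak and its derivatives, and ANKRD1, a target of YAP that is best known from heart muscle. DKK4 went from 0 and 0 CPM to 603 and 350.4 CPM, at least 6477-fold higher. RSPO3, which strengthens Wnt signals at the receptor, went from 0 and 0 to 82.5 and 75.0 CPM, at least 1074-fold higher. ANKRD1 was at 0.0903 and 0 CPM in the control and 143 and 89.8 CPM in APS, a ratio of counts of 2378 (counting interval 658 to 19643). Both APS libraries were far above both control libraries for each of these genes, although they differed between themselves, as the DKK4 values show.

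In absolute level the largest rises were in transport, growth and cytoskeletal genes. SLC2A3, the neuronal-type glucose transporter GLUT3, rose from 483 and 517 to 4579 and 4081 CPM, a log2 fold change of 3.20 ± 0.29 (edgeR adjusted p = 3.23e-08). SLC7A5, which imports large neutral amino acids, rose from 757 and 689.9 to 2551 and 2836 CPM, and ODC1, the first enzyme of polyamine synthesis, from 215 and 146 to 2022 and 1791 CPM. MIXL1 was the one streak transcription factor among the 5 largest gains in CPM. Cytoplasmic γ-actin, ACTG1, stood at 2935 and 2720.4 CPM in the control and 5251 and 3967 CPM in APS, and its call was lost without APS replicate 1 (edgeR adjusted p = 0.0969).

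The 15 largest falls by fold were HES3, FOXD3, HTR1D, SORBS2, APELA, BTBD17, FEZF1, CDK7, TTBK1, SOX2, SFRP1, METTL7A, ANO1, IDO1 and RASGRP2. FOXD3, a forkhead factor of pluripotent cells, fell from 40.7 and 29.0 to 0.237 and 0.0916 CPM, a log2 fold change of -7.60 ± 0.87. APELA, a peptide hormone secreted by human embryonic stem cells, fell from 51.2 and 85.4 to 0.710 and 0.641 CPM, a log2 fold change of -6.57 ± 1.09. HES3 was at 24.1 and 13.5 CPM in the control and 0.0473 and 0 CPM in APS, a ratio of counts, control over APS, of 825 (counting interval 148 to 32630.4), and DESeq2 did not call it (adjusted p = 0.467). CDK7, a kinase of the general transcription machinery, is listed under 2 identifiers, and its fall was seen under one of them, from 40.5 and 38.8 to 0.812 and 0.244 CPM. That call was lost without each of the 4 libraries in turn (edgeR adjusted p from 0.0726 to 0.213) and with only control and 24 h libraries (0.0754). Summed over both identifiers CDK7 was at 41.6 and 49.7 CPM in the control and 48.8 and 39.2 CPM in APS, and the groups overlapped. The largest falls in CPM were DNMT3B, CD24, PODXL, DPYSL3 and SEPHS1. CD24, a surface glycoprotein, fell from 2485 and 2732 to 475 and 411 CPM (-2.48 ± 0.19). PODXL, the sialomucin that carries the TRA-1-60 and TRA-1-81 epitopes of pluripotent cells, fell from 1821 and 1816 to 102 and 120.0 CPM (log2 fold change -3.95 ± 0.65), and DPYSL3, a cytoskeletal protein of neural tissue, from 1007 and 1062 to 103 and 115 CPM (-3.16 ± 0.25). SEPHS1, related to selenophosphate synthetase, fell from 1177 and 1134 to 281 and 246 CPM.

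Most general streak genes rose. Of 14 genes tested in this list 10 were higher and 0 lower, where 13.6% of all genes were higher, and the median log2 fold change of the list was 5.14 against 0.02 over all genes. TBXT (chr6:166157656-166168700), the brachyury gene, was at 0.0452 and 0.106 CPM in the control and 571 and 716 CPM in APS, a ratio of counts of 8795 (counting interval 3009 to 42651). MIXL1 (chr1:226223618-226227060) was at 1.22 and 1.49 CPM in the control and 1745 and 1755 CPM in APS, a log2 fold change of 10.42 ± 0.62 (edgeR adjusted p = 4.47e-11). EOMES (chr3:27715949-27722711) was at 0.316 and 0.266 CPM in the control and 465 and 429.9 CPM in APS, a log2 fold change of 10.63 ± 0.95 (edgeR adjusted p = 1.97e-08). Both APS libraries were far above both control libraries for all 3 genes. SP5, a Wnt target that represses other Wnt targets, went from 0 and 0 to 334 and 382 CPM, at least 4891-fold higher. GATA4, listed under 2 identifiers, summed to 0 and 0 CPM in the control and 78.6 and 98.9 CPM in APS. The 4 members not called were FOXH1 (94.7 and 72.3 CPM in the control, 124 and 144 CPM in APS), TDGF1 (738 and 877 CPM in the control, 484 and 356 CPM in APS), NKX1-2 and GDF3, all of them already measured in the control.

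The anterior streak genes split, with 61.1% called against 24.5% of all genes tested. Of 18 tested, 9 were higher (GSC, LHX1, CER1, NOG, EOMES, MIXL1, GATA6, FST and DKK1), 2 were lower (SHISA2 and HESX1) and 7 were not called, with a median log2 fold change of 3.01. GSC, the organizer homeobox gene, was at 0.0452 and 0 CPM in the control and 39.8 and 42.6 CPM in APS, a ratio of counts of 1688 (counting interval 303 to 66711). CER1, a secreted inhibitor of Nodal, BMP and Wnt, was at 0.813 and 1.44 CPM in the control and 1159.6 and 569.5 CPM in APS, a log2 fold change of 9.68 ± 0.84. LHX1, summed over its 2 identifiers, was at 0.903 and 0.425 CPM in the control and 61.7 and 25.4 CPM in APS. CER1 and LHX1 were lower in APS replicate 2 than in replicate 1, yet both libraries were above both controls. FOXA2, the forkhead factor of anterior streak and endoderm, was not called, with 0.587 and 0.904 CPM in the control and 0.426 and 0.595 CPM in APS, a log2 fold change of -0.45 ± 1.23. HHEX was at 0.316 and 0.319 CPM in the control and 0.993 and 0.549 CPM in APS, CHRD, a BMP antagonist of the organizer, at 1.35 and 0.960 CPM in the control and 0.520 and 0.504 CPM in APS, and OTX2, an anterior homeobox gene already present in the control, at 56.4 and 50.01 CPM in the control and 71.8 and 50.7 CPM in APS. None of these 3 was called, though HHEX passed without the filter on low counts (edgeR adjusted p = 0.0485). HESX1, a repressor of the anterior neural plate, fell from 12.04 and 15.5 to 0.284 and 0.504 CPM, a log2 fold change of -5.03 ± 0.73.

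Most genes of the posterior streak and nascent mesoderm rose, although this list and the anterior one were not tested against each other. Of 23 tested, 20 were higher and 0 lower, where 13.6% of all genes were higher. The median log2 fold change was 5.93 (5.78 with genes at 0 in the control set to their bound). EVX1, a homeobox gene of posterior streak, went from 0 and 0 to 212 and 294 CPM, at least 3459.9-fold higher. APLNR, the receptor for apelin that marks early mesoderm, went from 0.361 and 0.425 to 417 and 303 CPM, a log2 fold change of 9.90 ± 0.60 (edgeR adjusted p = 5.69e-11). CDX1 went from 0 and 0 to 73.3 and 79.98 CPM, at least 1047-fold higher, and its relative CDX2 from 0.0903 and 0 to 16.5 and 31.8 CPM, a ratio of counts of 496 (counting interval 137 to 4104). MESP1, the bHLH factor of the earliest mesoderm, was at 0.0452 and 0 CPM in the control and 32.0 and 24.1 CPM in APS. MSX1, a homeobox gene that responds to BMP, was at 0.181 and 0.0532 CPM in the control and 136 and 136 CPM in APS, a log2 fold change of 10.13 ± 0.65. HAND1 rose to a low level, 8.34 and 4.71 CPM against 0.181 and 0 CPM in the control, a log2 fold change of 6.05 ± 0.97. The 3 members not called were EVX2, CDX4 and KDR, and KDR, the receptor VEGFR2, was already at 158 and 198 CPM in the control. By counts of calls the APS libraries carried general streak, part of the anterior and most of the posterior sets at day 1. FOXA2, a defining anterior marker, was not called. Summed levels gave another order, with the anterior list at 4935 and 4182 CPM in APS and the posterior list at 1648 and 1683 CPM. These sums lean on the most abundant members, such as MIXL1. In the day 1 treatment MPS the anterior list summed to 4298 and 3880 CPM and the posterior list to 4436 and 3851 CPM.

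**Figure D2:**
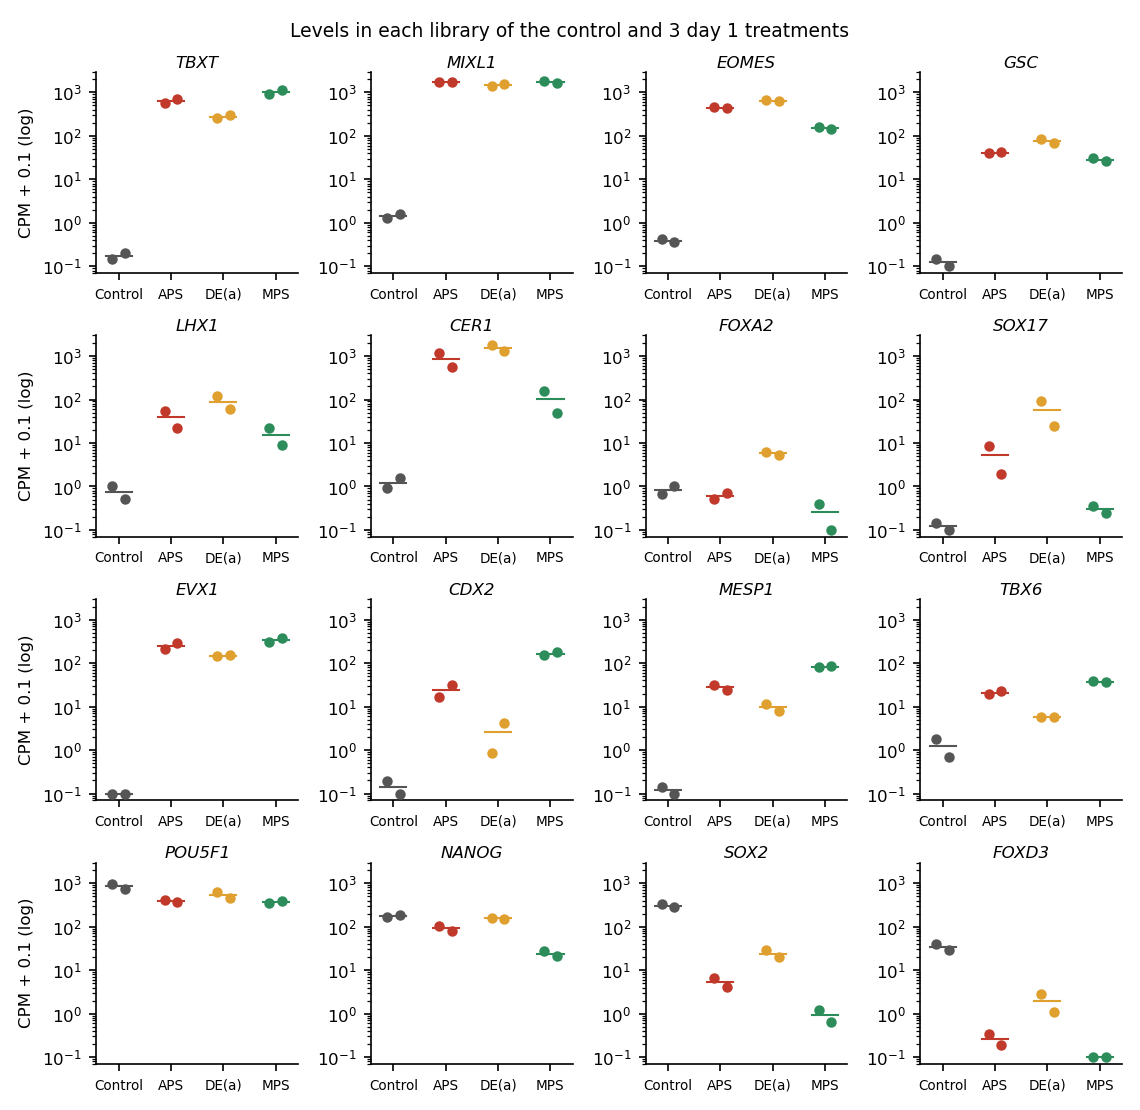
CPM plus 0.1 on a log axis of 16 genes in each library (points, 2 a group, with the bar at their mean) of the control and of the APS, DE(a) and MPS treatments at 24 h, each gene under its most abundant identifier. TBXT, MIXL1, EOMES, GSC, EVX1 and MESP1 lie far above the control in APS, FOXA2 does not, and SOX2 and FOXD3 lie far below it while POU5F1 and NANOG remain within the same order of magnitude.

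The pluripotency network came apart unevenly. Of 27 genes tested, 17 were lower and 0 higher, where 11% of all genes were lower, and the median log2 fold change was -1.04. Without APS replicate 1 there were 14 lower members and without APS replicate 2 there were 15. SOX2 (chr3:181711925-181714436), one of the 3 core factors and also a neural factor, fell from 331 and 278 to 6.59 and 3.99 CPM, a log2 fold change of -5.77 ± 0.77 (edgeR adjusted p = 5.94e-06). PRDM14, a repressor that guards the pluripotent state, fell from 139.5 and 136 to 8.38 and 6.73 CPM (-4.11 ± 0.36), and USP44, a deubiquitinase of stem cells, from 331 and 354 to 27.5 and 23.7 CPM (-3.66 ± 0.37). POU5F1, the gene for OCT4, fell by much less: summed over its 4 identifiers it was at 1625 and 1348 CPM in the control and 683 and 644 CPM in APS, and the most abundant identifier had a log2 fold change of -1.04 ± 0.20. NANOG, which is also a Nodal target, was at 171 and 188 CPM in the control and 103 and 81.1 CPM in APS. Both APS libraries were below both controls, but the log2 fold change of -0.89 ± 0.45 did not pass the test (edgeR adjusted p = 0.17). NANOG did pass when only the 4 libraries entered the fit (edgeR adjusted p = 0.00966), and its other passing values were 0.00558 with only control and 24 h libraries and 0.00024 without the filter on low counts. A replicate block also turned NANOG from not called to called (edgeR adjusted p = 0.0478, and 0.0127 with only the 4 libraries). LIN28A, an RNA-binding protein of stem cells, fell from 2239.7 and 2163 to 1329.6 and 1510.3 CPM (-0.55 ± 0.16), and its relative LIN28B was not called, at 232 and 269 CPM in the control and 287 and 273 CPM in APS. SALL4 and ZIC2 were not called, while SALL2, another zinc finger factor, fell from 665 and 594 to 109 and 121 CPM (-2.37 ± 0.14). ZFP42, the REX1 gene, was at 263 and 255 CPM in the control and 237 and 155 CPM in APS and was not called.

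Both de novo DNA methyltransferase genes fell with the pluripotency genes. DNMT3B, high in the primed state, fell from 2931 and 2632 to 557 and 647 CPM, a log2 fold change of -2.13 ± 0.18 (edgeR adjusted p = 7.46e-09), and DNMT3A from 237 and 193 to 93.2 and 103 CPM (-1.05 ± 0.14). The maintenance enzyme DNMT1 was not called, at 339 and 317 CPM in the control and 305 and 384 CPM in APS, and its cofactor UHRF1 was higher, at 113 and 86.0 in the control and 121 and 171 CPM in APS. TET2, an enzyme that oxidises methylcytosine, rose from 4.29 and 4.47 to 10.03 and 16.2 CPM (1.66 ± 0.26). Calls covered 53.8% of the methylation and demethylation genes, against 24.5% of all genes tested. Of 13 genes of DNA methylation and demethylation tested 5 were higher and 2 lower, and without APS replicate 1 or control replicate 1 the higher count was 3.

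Wnt feedback genes rose broadly. The list holds genes that β-catenin switches on, many of whose products restrain or tune the pathway. Other members, such as CCND1, are plain targets, and TBXT, CDX1 and BMP4 also stand in the streak lists. Of 23 tested, 18 were higher and 2 lower, where 13.6% of all genes were higher and 11% lower. The median log2 fold change was 3.94. AXIN2, a scaffold of the β-catenin destruction complex, rose from 45.7 and 39.2 to 265 and 398 CPM, a log2 fold change of 3.04 ± 0.34 (edgeR adjusted p = 5.61e-07). NKD1, an inhibitor of Dishevelled, rose from 9.99 and 7.71 to 454 and 672 CPM (6.07 ± 0.55), and the ubiquitin ligase gene RNF43, whose product removes Frizzled receptors, from 1.43 and 0.910 to 15.9 and 28.0 CPM (4.29 ± 0.53). DKK1 went from 0.135 and 0.266 to 981 and 844 CPM (12.22 ± 0.77) and NOTUM, which inactivates Wnt ligands, from 0.271 and 0.0532 to 38.7 and 43.8 CPM. Among the nuclear partners of β-catenin, LEF1 rose from 0.948 and 1.12 to 107 and 142 CPM (6.99 ± 0.41) and TCF7 from 12.7 and 12.8 to 146 and 199 CPM (3.84 ± 0.29), while TCF7L1, the repressor TCF3 of stem cells, fell from 259 and 213 to 19.6 and 15.3 CPM (-3.68 ± 0.25, edgeR adjusted p = 4.53e-10). MYC, often listed as a Wnt target, was not called, at 99.9 and 86.8 CPM in the control and 93.2 and 86.9 CPM in APS. AXIN2, NKD1, RNF43, LEF1 and TCF7 were higher in APS replicate 2 than in replicate 1, the reverse of CER1 and LHX1.

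The receptors for Wnt and R-spondin exchanged members. LGR5, a receptor for R-spondins, rose from 0.452 and 0.425 to 108 and 126 CPM (8.12 ± 0.58), and its relative LGR4 fell from 134 and 173 to 39.0 and 50.6 CPM (-1.70 ± 0.19). Of 19 Frizzled receptors and secreted or membrane Wnt inhibitors tested 5 were higher and 6 lower, with 3 higher without APS replicate 2. Calls covered 57.9% of this list, against 24.5% of all genes tested. FZD7, the main Frizzled of human pluripotent cells, fell from 487 and 551 to 167 and 125 CPM (-1.75 ± 0.26) and FZD5 from 109.6 and 114 to 39.8 and 50.4 CPM (-1.23 ± 0.25), whereas FZD4 rose from 16.8 and 15.8 to 32.0 and 47.8 CPM (1.37 ± 0.28). Of the inhibitors, SFRP1 fell from 518 and 368 to 9.02 and 7.36 CPM (-5.67 ± 0.25, edgeR adjusted p = 5.74e-13) and SFRP2 from 446 and 366 to 109 and 111 CPM (-1.80 ± 0.27). WIF1 fell from 8.01 and 10.2 to 0.284 and 0.366 CPM. Among secreted antagonists, DKK1, DKK4, NOTUM and CER1 were thus higher, while SFRP1, SFRP2, FRZB and WIF1 were lower.

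Most Wnt ligand genes tested were higher, where 13.6% of all genes tested were. Of 14, 9 were higher (6 without control replicate 2), 0 lower and 5 not called, with a median log2 fold change of 4.65 (4.05 with bounds). WNT3, the ligand that starts the streak in the mouse, summed over its 3 identifiers to 2.82 and 1.91 CPM in the control and 121 and 139 CPM in APS. The most abundant identifier lost its call without control replicate 2 (edgeR adjusted p = 0.0584). WNT5A, a ligand of the noncanonical branch, rose from 4.80 and 4.36 to 208 and 217 CPM (5.61 ± 0.33) and WNT5B from 1.08 and 1.01 to 84.2 and 129.6 CPM (6.74 ± 0.55). WNT3A was at 0 and 0.0532 CPM in the control and 12.1 and 16.2 CPM in APS, a ratio of counts of 581 (counting interval 104 to 22989). WNT8A and WNT10B had 0 counts in the control and were low in APS, WNT8A at 1.14 and 3.25 CPM and WNT10B at 0.0946 and 0.366 CPM.

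**Figure D3:**
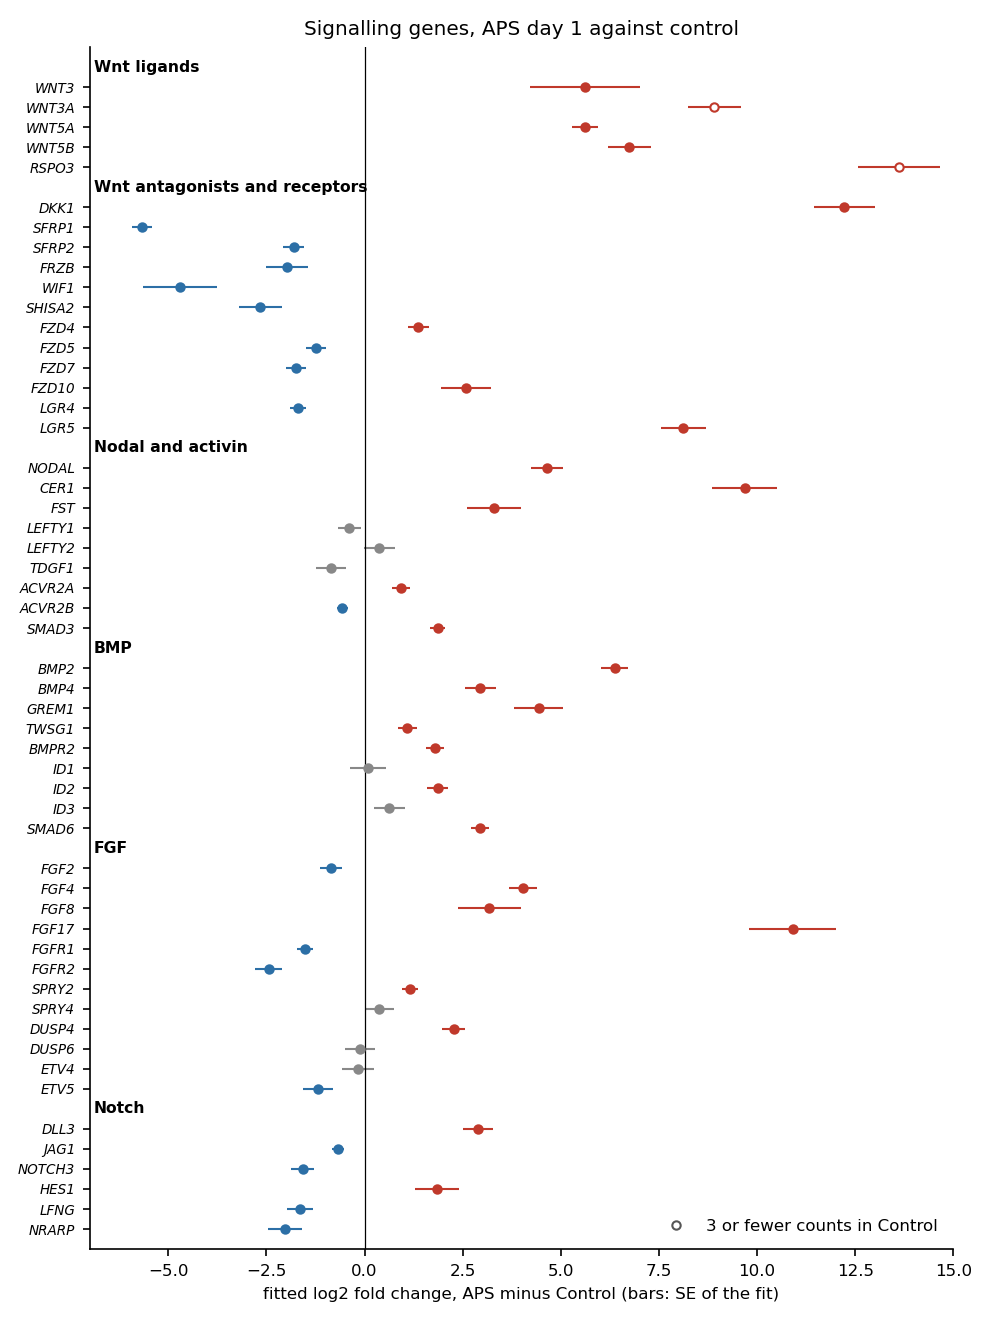
Fitted log2 fold change of APS over control for genes of 6 signalling groups, with bars for the SE of the fit. Red marks genes higher in APS, blue genes lower and grey genes not called, and hollow points had 3 or fewer counts in the control, so that their fitted value depends on the prior count. SFRP1, WIF1 and LGR4 lie to the left and DKK1, LGR5 and the Wnt ligands to the right.

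In the Nodal and activin pathway the ligand gene NODAL rose, and the feedback inhibitor genes LEFTY1 and LEFTY2 did not pass the test. CER1, the secreted inhibitor given above, was higher, as were SMAD7, PMEPA1 and BAMBI of the same list. NODAL rose from 10.3 and 12.1 to 292 and 240.4 CPM, a log2 fold change of 4.65 ± 0.40 (edgeR adjusted p = 1.32e-08). LEFTY1 was at 10.96 and 14.3 CPM in the control and 9.58 and 8.68 CPM in APS (-0.39 ± 0.29, edgeR adjusted p = 0.392), and LEFTY2 at 7.79 and 9.21 CPM in the control and 11.4 and 9.54 CPM in APS (0.38 ± 0.38, edgeR adjusted p = 0.538). FST, follistatin, which binds activin, rose from 22.0 and 16.4 to 155 and 202 CPM (3.30 ± 0.69). Of 27 pathway genes tested, 9 were higher, 3 lower (1 without APS replicate 1) and 15 not called, with a median log2 fold change of 0.21. The effector SMAD3 rose from 25.7 and 22.0 to 75.4 and 88.1 CPM (1.86 ± 0.18) while SMAD2 was not called, at 74.6 and 85.8 CPM in the control and 69.4 and 69.2 CPM in APS. INHBA, the activin A subunit gene, fell from 2.98 and 4.95 to 0.331 and 0.0916 CPM (-4.12 ± 0.97). The coreceptor TDGF1 and the receptor ACVR1B were not called. Of the pathway genes tested 44.4% were called, against 24.5% of all genes tested.

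Most BMP targets of the list rose, and no BMP4 had been added. The median log2 fold change of this list was 2.24. Of its 17 genes tested 13 were higher and 0 lower, where 13.6% of all genes were higher. They included the inhibitory SMAD6, which rose from 6.34 and 5.27 to 36.9 and 47.7 CPM (2.95 ± 0.23, edgeR adjusted p = 3.41e-09), ID2, from 14.00 and 12.5 to 53.02 and 38.5 CPM (1.87 ± 0.27), and BAMBI, a decoy receptor that Wnt also induces, from 26.5 and 22.7 to 154 and 114 CPM (2.53 ± 0.28). ID1 and ID3, the most direct BMP targets of the list, were not called: ID1 was at 66.3 and 62.4 CPM in the control and 73.5 and 55.7 CPM in APS (0.09 ± 0.46), and ID3 at 78.1 and 58.4 CPM in the control and 123 and 76.8 CPM in APS (0.63 ± 0.39). Several members of the list, among them MSX1, TBX3 and HAND1, are also streak genes. The ligand gene BMP2 rose from 6.21 and 4.63 to 424 and 425 CPM, a log2 fold change of 6.37 ± 0.35 (edgeR adjusted p = 1.55e-11), and BMP4 from 5.06 and 4.15 to 40.0 and 27.5 CPM (2.95 ± 0.39). The receptor BMPR2 rose from 26.5 and 33.8 to 83.7 and 115 CPM (1.80 ± 0.23). Of the antagonists, GREM1 summed over its 2 identifiers was at 0.948 and 1.12 CPM in the control and 34.9 and 20.4 CPM in APS, and NOG rose to a low level, from 0.0452 and 0.0532 to 0.426 and 1.14 CPM. Of BMP ligands, receptors and modulators 50% were called, against 24.5% of all genes tested. In all, 10 of 22 BMP ligands, receptors and modulators were higher and 1, the antagonist CHRDL1, lower, a call lost without APS replicate 1 and without control replicate 2.

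FGF ligands and receptors moved in opposite directions by gene, with 56.5% called against 24.5% of all genes tested. Of 23 tested, 8 were higher and 5 lower, with 5 higher without control replicate 1 and 3 lower without either APS library. FGF17 was at 0.135 and 0.160 CPM in the control and 296 and 259 CPM in APS (10.90 ± 1.1), FGF4 at 3.48 and 5.48 CPM in the control and 68.3 and 70.6 CPM in APS (4.04 ± 0.37), and FGF8 at 1.97 and 1.81 CPM in the control and 15.99 and 16.6 CPM in APS (3.18 ± 0.80), all ligands of the streak. FGF2, the ligand that was itself added as protein, fell from 215 and 265 to 113 and 139 CPM (-0.85 ± 0.27). The receptor FGFR1 fell from 600.0 and 512 to 162 and 209 CPM (-1.51 ± 0.20, edgeR adjusted p = 7.36e-06) and FGFR2 from 118 and 122 to 21.4 and 20.4 CPM (-2.45 ± 0.35), whereas FGFR3 and FGFR4 were not called. Among 23 feedback and response genes of ERK 7 were higher and 3 lower, a share called of 43.5%. SPRY2, SPRED2 and IL17RD were among the higher ones. The phosphatase genes DUSP4 and DUSP5 rose, DUSP4 from 7.81 and 10.4 to 47.4 and 35.3 CPM (2.27 ± 0.29) and DUSP5 from 24.1 and 22.5 to 114 and 94.7 CPM (2.24 ± 0.28). DUSP6, SPRY4 and ETV4, standard readouts of FGF signalling, were not called: DUSP6 was at 80.2 and 65.4 CPM in the control and 81.4 and 46.2 CPM in APS (-0.11 ± 0.39) and SPRY4 at 199.7 and 173 CPM in the control and 239 and 219.9 CPM in APS (0.38 ± 0.36). ETV5 fell from 41.9 and 43.3 to 20.7 and 14.8 CPM (-1.18 ± 0.38). The immediate early gene EGR1 spread widely within each group and was not called, with 6.42 and 56.6 CPM in the control and 19.3 and 217 CPM in APS, replicate 2 being the higher in both.

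Notch genes were called in both directions, at 36.4% of those tested against 24.5% of all genes tested. Of 22 tested, 6 were lower and 2 higher (1 without APS replicate 2 or either control library), with a median log2 fold change of -0.05. NOTCH3 fell from 312 and 239 to 78.0 and 97.4 CPM (-1.57 ± 0.29) and the feedback gene NRARP from 44.1 and 31.5 to 8.56 and 8.91 CPM (-2.03 ± 0.43). DLL3, a ligand-like protein of presomitic mesoderm that inhibits Notch, rose from 3.01 and 3.62 to 28.6 and 17.9 CPM (2.89 ± 0.39). HES1 was at 7.77 and 7.23 CPM in the control and 21.8 and 29.3 CPM in APS (1.85 ± 0.56), a call that was lost without APS replicate 2 (edgeR adjusted p = 0.105) and without either control library.

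Of 18 genes of retinoic acid handling, 7 were higher and 4 lower, and the higher count was 5 without APS replicate 1 and 4 without APS replicate 2 or control replicate 2. Calls covered 61.1% of this list, against 24.5% of all genes tested. CYP26A1, which degrades retinoic acid, rose from 2.30 and 1.01 to 116 and 52.1 CPM (5.72 ± 0.67). DHRS3, which turns retinaldehyde back to retinol, fell from 21.8 and 19.6 to 1.49 and 0.824 CPM (-4.06 ± 0.71), and LRAT, which esterifies retinol for storage, from 66.3 and 92.4 to 3.93 and 5.95 CPM (-3.93 ± 0.64). ALDH1A2, the enzyme of retinoic acid synthesis in mesoderm, reached only 1.51 and 1.28 CPM.

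Markers of the fates that follow the streak were mostly low at day 1. Called were 52.9% of endoderm, 43.8% of presomitic and paraxial and 60% of lateral and cardiac genes, against 24.5% of all genes tested. Of 17 definitive endoderm genes tested 7 were higher, 2 lower (1 without any 1 of the 4 libraries) and 8 not called. SOX17, the endoderm factor, was at 0.0452 and 0 CPM in the control and 8.62 and 1.79 CPM in APS, a ratio of counts of 211 (counting interval 37.4 to 8353), and its call was lost without APS replicate 1 (edgeR adjusted p = 0.172) and without either control library (0.117 and 0.111). CXCR4, the surface marker of endoderm, was at 1.04 and 1.38 CPM in the control and 2.79 and 1.83 CPM in APS (1.02 ± 0.75, edgeR adjusted p = 0.371, and 0.00274 without the filter on low counts). GATA6, shared by endoderm and mesoderm, was at 0.0452 and 0 CPM in the control and 229.9 and 236 CPM in APS, a ratio of counts of 9538 (counting interval 1711 to 376753). Of 16 presomitic and paraxial mesoderm genes 5 were higher and 2 lower (1 without any 1 library). TBX6, the T-box gene of paraxial mesoderm, rose from 1.72 and 0.585 to 19.1 and 22.3 CPM (4.21 ± 0.31), and FOXC1 from 0.316 and 0.106 to 35.9 and 21.5 CPM (7.08 ± 0.51). MSGN1 appeared at 2.65 and 2.84 CPM from 0 counts in the control, and RIPPLY1, MEOX1 and PAX3 were not called, PAX3 being at 0 and 0.275 CPM in APS. Of 15 lateral and cardiac genes 9 were higher and 0 lower, many at a few CPM: ISL1 was at 5.79 and 6.66 CPM in APS, WT1 at 3.55 and 3.30 CPM and NKX2-5 at 1.04 and 0.824 CPM. MYL7, an atrial myosin light chain, went from 0.813 and 0.319 to 30.3 and 14.04 CPM (5.33 ± 0.80).

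Markers of amnion and of ectoderm gave no common direction. The share called was 53.3% for amnion and trophoblast and 28.6% for ectoderm, against 24.5% of all genes tested. Of 15 amnion and trophoblast genes 6 were higher and 2 lower (1 without APS replicate 2), and of the higher ones ISL1, CDX2 and HAND1 are also genes of streak or mesoderm and CDH10 is a cadherin. GATA3 was at 0.181 and 0.319 CPM in the control and 2.61 and 1.37 CPM in APS (3.06 ± 0.65), TFAP2A at 0.0903 and 0.160 CPM in the control and 0.615 and 1.20 CPM in APS, a call lost without APS replicate 2 (edgeR adjusted p = 0.128), and the trophoblast factor ELF5 had no count in any of the 4 libraries. Of 14 neural and surface ectoderm genes tested 2 were higher (among them KRT5, at 0.189 and 0.275 CPM) and 2 lower (POU3F1 and FOXD3), and without APS replicate 2 or control replicate 2 none was higher, without control replicate 1 only 1 was, and 1 was lower without APS replicate 2 or control replicate 1. POU3F1, the OCT6 gene, was at 18.4 and 8.28 CPM in the control and 1.23 and 0.366 CPM in APS (-3.97 ± 1.11), a call lost without APS replicate 2 (edgeR adjusted p = 0.125). SOX1 and PAX6, the defining neural genes, were too low to be tested, with SOX1 at 0.189 and 0 CPM and PAX6 at 0 CPM in APS.

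**Figure D4:**
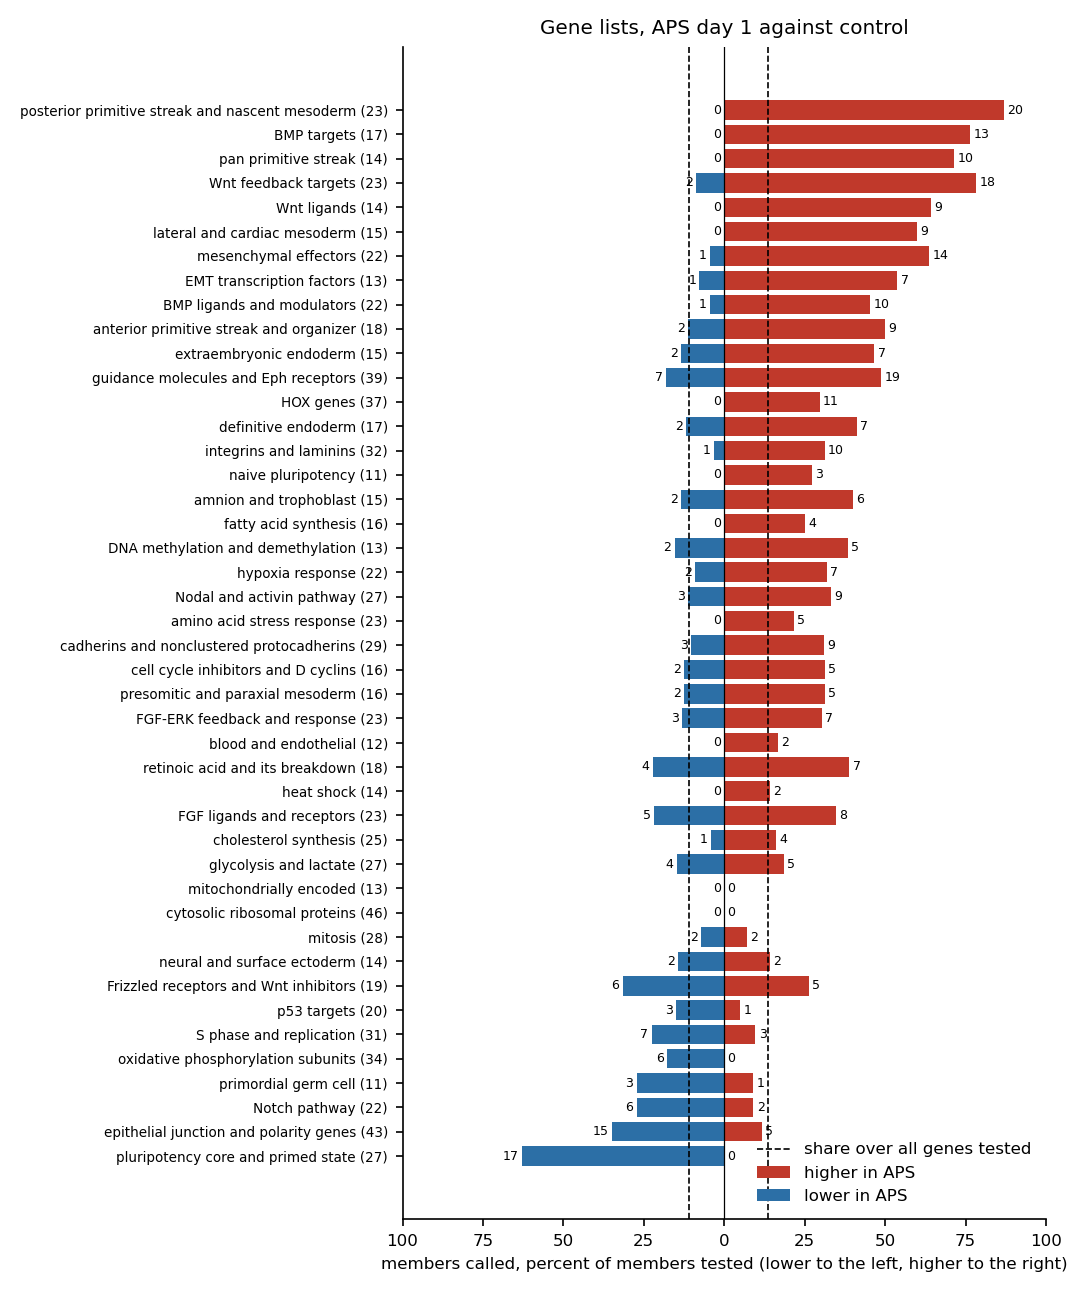
Share of the tested members of each gene list that were higher (red, right) or lower (blue, left) in APS, in percent, with the number of genes at the end of each bar and the number tested in parentheses. Dashed lines mark 13.6% and 11%, the shares over all genes tested. The posterior streak list (20 of 23 higher) and the pluripotency list (17 of 27 lower) are at the ends.

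Of 13 transcription factors of epithelial-mesenchymal transition 7 were higher, 1 lower (SNAI3) and 5 not called. Shares called were 61.5% for these and 68.2% for mesenchymal effectors, against 24.5% of all genes tested. SNAI1, the repressor of E-cadherin at the streak, rose from 4.61 and 3.55 to 48.7 and 49.4 CPM (3.66 ± 0.27, edgeR adjusted p = 1.23e-09), and ZEB2 from 0.632 and 0 to 32.8 and 26.5 CPM (6.51 ± 0.57). SNAI2 reached 12.02 and 6.92 CPM and TWIST1 2.74 and 1.65 CPM. Of 22 mesenchymal effector genes 14 were higher, 1 lower and 7 not called, with a median log2 fold change of 2.38 (2.07 with bounds). VIM, the intermediate filament vimentin, rose from 91.5 and 99.4 to 881 and 542 CPM (2.98 ± 0.34), COL5A1 from 26.7 and 19.6 to 462 and 541 CPM (4.52 ± 0.21) and HAS2, which makes hyaluronan, from 14.9 and 11.1 to 336 and 168 CPM (4.35 ± 0.36). Fibronectin, FN1, was not called, at 176 and 205 CPM in the control and 228 and 268 CPM in APS, and the proteoglycan VCAN fell from 1013 and 1310.0 to 327 and 499 CPM (-1.41 ± 0.21).

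Cadherin and nonclustered protocadherin genes changed in both directions, with 41.4% called against 24.5% of all genes tested. CDH2, N-cadherin, rose from 46.9 and 48.2 to 529 and 555 CPM, a log2 fold change of 3.59 ± 0.16 (edgeR adjusted p = 8.77e-13). CDH1, E-cadherin, was at 303 and 299 CPM in the control and 149 and 194 CPM in APS, a log2 fold change of -0.73 ± 0.26 (edgeR adjusted p = 0.0413), and no longer passed when any one of the 4 libraries was left out (0.0523 to 0.245). Both APS libraries were nonetheless below both controls for CDH1. CDH3, P-cadherin, was not called, at 177 and 149 CPM in the control and 137 and 150.4 CPM in APS. CDH11 rose from 8.97 and 11.6 to 168 and 159.5 CPM (4.07 ± 0.42) and the protocadherin PCDH10 from 4.87 and 5.26 to 288 and 315 CPM (5.97 ± 0.31), while PCDH1 fell from 308 and 258 to 30.0 and 26.4 CPM (-3.25 ± 0.53). In all, 9 of 29 cadherins and nonclustered protocadherins were higher and 3 lower, with 1 lower without either APS library or control replicate 1.

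Epithelial genes fell in part, with 46.5% of junction and polarity genes called against 24.5% of all genes tested. Of 43 junction and polarity genes tested 15 were lower and 5 higher, with a median log2 fold change of -0.32, with 8 lower without APS replicate 2 and 9 without either control library. The higher count was 3 without either APS library and 2 without control replicate 1. Tight junction genes were prominent among the falls: TJP3 fell from 12.4 and 10.6 to 0.804 and 0.183 CPM (-4.45 ± 0.94), CGN, cingulin, from 104 and 82.0 to 29.9 and 31.6 CPM (-1.51 ± 0.21) and CLDN3 from 7.78 and 6.24 to 0.237 and 0.320 CPM (-4.54 ± 0.83). CLDN6, OCLN and EPCAM were not called, with EPCAM at 192 and 218 CPM in the control and 130.2 and 136 CPM in APS, though EPCAM passed with only control and 24 h libraries and without the filter (edgeR adjusted p = 0.0463 and 0.0194). The splicing regulator ESRP1 fell from 202 and 225 to 105 and 103 CPM (-0.96 ± 0.26) and the transcription factor GRHL2 from 38.5 and 37.1 to 12.4 and 16.3 CPM (-1.32 ± 0.39). The 5 higher members were the desmosomal DSP, DSC2 and PKP2 and the simple keratins KRT8 and KRT18. DSP, desmoplakin, rose from 105 and 93.4 to 371 and 527 CPM (2.26 ± 0.28, edgeR adjusted p = 2.18e-06) and KRT8 from 231 and 174 to 890.0 and 591 CPM (1.95 ± 0.31).

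Among integrins and laminins 10 of 32 were higher and 1 lower, with 6 higher without APS replicate 2. Integrins and laminins were called in 34.4% of cases, against 24.5% of all genes tested. ITGA5, a subunit of the fibronectin receptor, rose from 17.4 and 15.8 to 175 and 142 CPM (3.34 ± 0.27), and ITGA6, a subunit of laminin receptors, was the one that fell, from 265 and 283 to 30.6 and 24.9 CPM (-3.22 ± 0.27, edgeR adjusted p = 5.92e-09). LAMB1 rose from 92.5 and 91.6 to 259 and 345 CPM (1.79 ± 0.17). Guidance molecules and Eph receptors changed in number: of 39 tested 19 were higher and 7 lower, a share called of 66.7%. FLRT3, an adhesion protein that binds FGF receptors and UNC5 proteins, rose from 0.813 and 0.798 to 162 and 183 CPM (7.81 ± 0.35, edgeR adjusted p = 6.9e-13), PLXNA2, a semaphorin receptor, from 4.46 and 2.66 to 158 and 141 CPM (5.46 ± 0.40), and NTN1, netrin, from 6.29 and 6.61 to 143 and 174 CPM (4.70 ± 0.50). EPHA4 rose from 11.2 and 10.2 to 154 and 168 CPM (4.00 ± 0.36). UNC5B, a netrin receptor, fell from 134 and 112 to 12.5 and 7.598 CPM (-3.53 ± 0.47), while its relative UNC5C rose from 1.85 and 1.97 to 22.1 and 18.9 CPM (3.50 ± 0.57).

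HOX genes, which give posterior identity along the body axis, were called in 11 of 37 cases, all higher, with 7 called without APS replicate 2 and without either control library. Over all genes tested 24.5% were called, and of the HOX genes 29.7%. HOXB3 reached 3.83 and 7.19 CPM (5.04 ± 0.78) and HOXB1 1.66 and 1.83 CPM (3.85 ± 0.92). HOXB9 reached 1.66 and 2.70 CPM and HOXB6 0.662 and 0.824 CPM, both from 0 counts in the control. The calls of HOXA3 and HOXB4 were among those lost without APS replicate 2 (edgeR adjusted p = 0.23 and 0.189).

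In energy metabolism, glycolysis genes did not move as a group. Of 27 tested, 5 were higher and 4 lower, with a median log2 fold change of 0.06. The share called was 33.3%, against 24.5% of all genes tested. It was 40.9% for the hypoxia response and 17.6% for nuclear oxidative phosphorylation genes. Beside SLC2A3, the kinase PDK1, which holds pyruvate out of the mitochondria, rose from 14.5 and 16.8 to 55.5 and 58.0 CPM (1.94 ± 0.24) and the pyruvate kinase gene PKM from 858 and 885 to 1619.7 and 1265 CPM (0.81 ± 0.21). SLC2A1, the GLUT1 gene, was not called, at 226 and 194 CPM in the control and 299 and 230.3 CPM in APS, and ENO2 fell from 96.5 and 99.0 to 35.6 and 26.7 CPM (-1.57 ± 0.35). Of 22 hypoxia response genes 7 were higher and 2 lower (1 without any 1 library), EGLN3, an oxygen sensor, rising from 29.3 and 30.7 to 95.2 and 87.0 CPM (1.68 ± 0.31), and CA9, the usual marker, not called at 0.0452 and 0.160 CPM in the control and 0.142 and 0.0916 CPM in APS. Of 34 nuclear oxidative phosphorylation genes 6 were lower and 0 higher, 13 were lower without APS replicate 1 and 2 without APS replicate 2 or either control library, the sums for these genes being those given at the start. Of the 46 cytosolic ribosomal protein genes and the 13 mitochondrially encoded genes edgeR called 0, DESeq2 also called 0, and 1 of the 46 and 0 of the 13 had an unadjusted p under 0.05.

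Of the lipid synthesis genes, 4 of 25 for cholesterol were higher and 1 lower, and 4 of 16 for fatty acids were higher and 0 lower. The share called was 20% for cholesterol and 25% for fatty acids, against 24.5% of all genes tested. It was 21.7% for the amino acid stress response, 20% for p53 targets and 14.3% for heat shock genes. HMGCS1, an early enzyme of the cholesterol pathway, was not called, and the cholesterol count was 1 higher and 2 lower without APS replicate 1, 1 higher and 0 lower without control replicate 1, and 0 lower without APS replicate 2. LPIN1, a phosphatidate phosphatase, rose from 14.4 and 13.7 to 53.3 and 44.4 CPM (1.88 ± 0.26). Among 23 genes of the amino acid stress response 5 were higher and 0 lower: SLC7A5, its partner SLC3A2 (388 and 327 to 729 and 642 CPM, 1.02 ± 0.18), SLC7A11, CEBPB and the tryptophan tRNA synthetase WARS1. ATF4 and DDIT3 were not called, and the higher count was 3 without APS replicate 1 or either control library, with 1 lower without APS replicate 1. Of 20 p53 targets 1 was higher (BTG2; 2 without control replicate 1) and 3 lower (1 without APS replicate 1 or control replicate 1), with CDKN1A at 17.4 and 8.63 CPM in the control and 24.0 and 17.3 CPM in APS and not called. Of 14 heat shock genes 2 were higher, BAG3 and CHORDC1, and CHORDC1 lost its call without each of the 4 libraries in turn (edgeR adjusted p from 0.109 to 0.218).

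Cell cycle genes were called in both directions. Of all genes tested 24.5% were called. The share was 32.3% for S phase and replication, 14.3% for mitosis and 43.8% for regulators of the cycle. Of 31 genes of S phase and replication 3 were higher and 7 lower, among them MCM6, from 270.2 and 310.1 to 200.2 and 179 CPM (-0.53 ± 0.12), and without any 1 of the 4 libraries the lower count was 4, and the higher count 1 without APS replicate 1 or control replicate 1. Of 28 mitotic genes 2 were higher and 2 lower, with 1 higher without APS replicate 1 and 0 lower without APS replicate 1, APS replicate 2 or control replicate 2 (edgeR). CENPE, a kinetochore motor, rose from 66.6 and 87.7 to 223 and 379.5 CPM (2.04 ± 0.31), and MKI67 was not called, at 261 and 319 CPM in the control and 269.7 and 369.6 CPM in APS. Of 16 regulators of the cycle 5 were higher and 2 lower, with 3 higher without APS replicate 1, and 1 lower without APS replicate 2 or control replicate 1. CCND1, cyclin D1, rose from 192 and 164 to 498 and 648 CPM (1.77 ± 0.17, edgeR adjusted p = 6.25e-08) and CCND2 from 72.8 and 50.04 to 209 and 175 CPM (1.72 ± 0.25). The inhibitor gene CDKN2B rose from 0.271 and 0.160 to 16.7 and 13.6 CPM (6.16 ± 0.50). MYCN, the MYC family member of stem cells, fell from 186 and 135 to 21.8 and 18.4 CPM (-2.92 ± 0.27, edgeR adjusted p = 3.56e-08) while MYC was not called, as given above.

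Set against the other day 1 treatments, APS differed in fewer genes from DE(a), the endoderm protocol of 100 ng/ml activin A and 2 µM CHIR99021 without bFGF, than from MPS, the mid streak protocol with the APS activin and bFGF doses, 40 ng/ml BMP4 and 6 µM CHIR99021. Doses of more than 1 factor differ in each pair, so no single factor can be named. Against DE(a) 131 genes were called (0.732% of genes tested), 109 higher and 22 lower in APS, and against MPS 524 (2.93%), 185 higher and 339 lower. The DE(a) count was 60 without APS replicate 2, 38 without DE(a) replicate 1 and 81 without DE(a) replicate 2. The MPS count was 249 without APS replicate 1, 225 without APS replicate 2, 258 without MPS replicate 1 and 263 without MPS replicate 2. RSPO3 was at 82.5 and 75.0 CPM in APS and 8.51 and 12.7 CPM in DE(a), a log2 difference of 2.88 ± 0.45 (edgeR adjusted p = 0.00148). LGR5 was at 108 and 126 CPM in APS and 5.53 and 10.1 CPM in DE(a), a log2 difference of 3.89 ± 0.43 (edgeR adjusted p = 2.03e-05). Of the genes lower in APS, GDF3, a Nodal-related ligand, was at 12.6 and 8.56 CPM in APS and 64.5 and 59.8 CPM in DE(a) (-2.57 ± 0.52, edgeR adjusted p = 0.0155). FOXA2 was at 0.426 and 0.595 CPM in APS and 6.24 and 5.32 CPM in DE(a), with a log2 difference of -3.50 ± 1.07 (edgeR adjusted p = 0.226). SOX17 was at 8.62 and 1.79 CPM in APS and 91.7 and 24.3 CPM in DE(a), with a log2 difference of -3.50 ± 1.00 (edgeR adjusted p = 0.178).

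The genes most above their MPS level in APS were CYP26A1, ADGRG2, CER1, CALCR, MYCT1 and NWD2. Of these ADGRG2 was lower in APS than in the control, at 37.2 and 42.0 CPM in the control, 19.3 and 14.7 CPM in APS and 2.21 and 1.18 CPM in MPS, a call against the control that was lost without each of the 4 libraries in turn (edgeR adjusted p from 0.0593 to 0.204). CER1 was at 1159.6 and 569.5 CPM in APS and 156 and 49.4 CPM in MPS, a log2 difference of 3.05 ± 0.59 (edgeR adjusted p = 0.00531), and CYP26A1 at 116 and 52.1 CPM in APS and 5.28 and 4.32 CPM in MPS (4.11 ± 0.60, edgeR adjusted p = 0.000258). The genes most below their MPS level were PAX3, HOXB6, HOXB4, HOXB2, HOXA3 and NOG, genes that the BMP4-treated cells expressed and APS cells hardly did. HOXB6 was at 0.662 and 0.824 CPM in APS and 71.4 and 69.3 CPM in MPS (-6.57 ± 0.54, edgeR adjusted p = 1.98e-06). CDX2, the posterior gene shown above by its sequence, was at 0.778 and 4.13 CPM in DE(a), 16.5 and 31.8 CPM in APS and 151 and 176 CPM in MPS, and differed between APS and MPS by -2.78 ± 0.43 on the log2 scale (edgeR adjusted p = 0.0006). TBXT, MIXL1 and EOMES were high in all 3 treatments: TBXT was at 259 and 298 CPM in DE(a) and 920.4 and 1152 CPM in MPS, and EOMES at 666 and 631 CPM in DE(a) and 163 and 145 CPM in MPS. The 3 treatments share the control libraries, so their contrasts with the control are not independent.

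**Figure D5:**
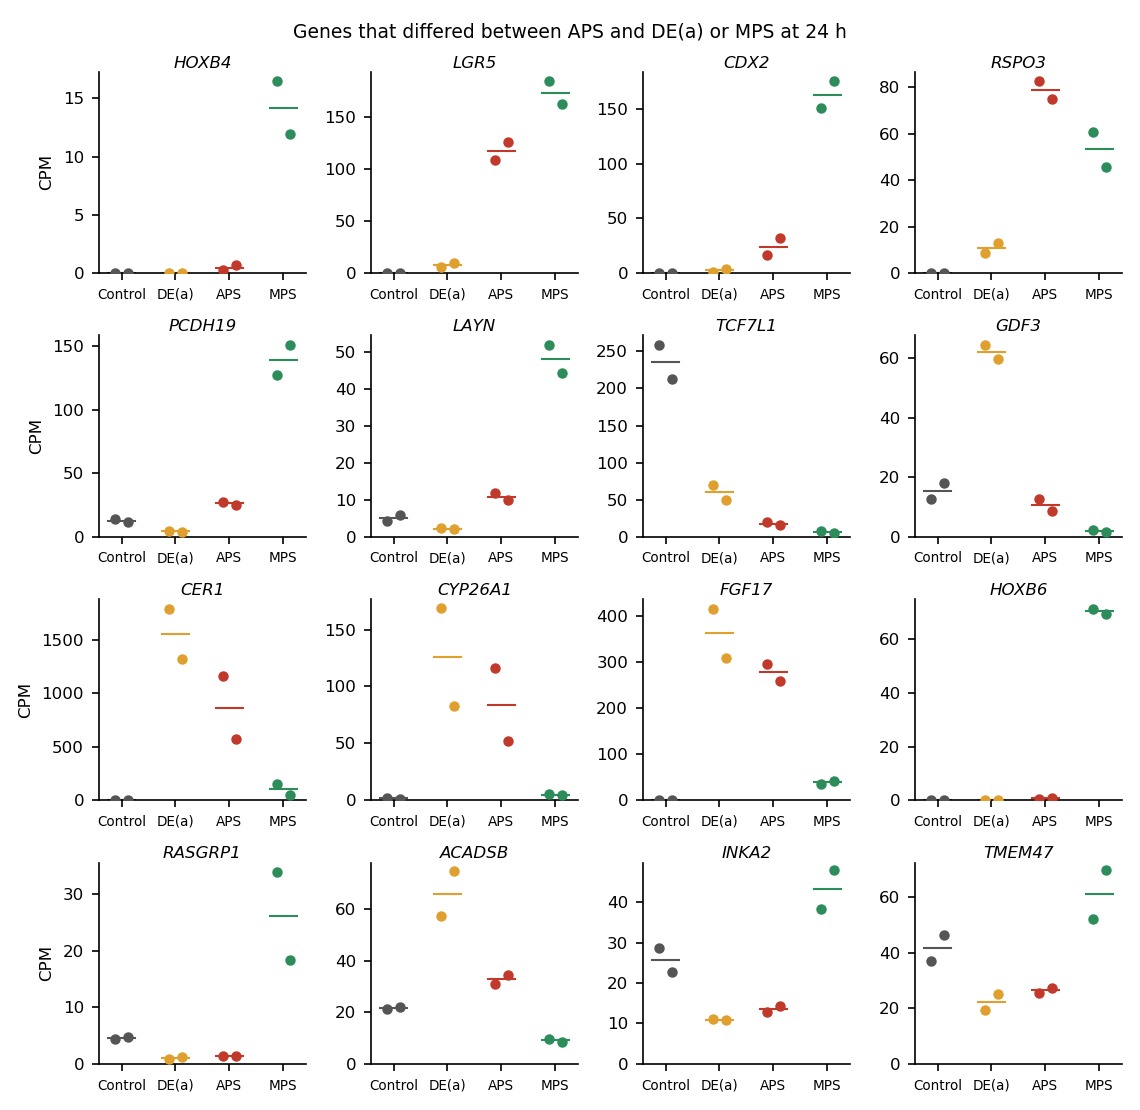
CPM on a linear axis from 0 of 16 genes in each library of the control and of the DE(a), APS and MPS treatments at 24 h (points, 2 a group, with the bar at their mean). LGR5, CDX2 and RSPO3 are higher in APS than in DE(a), and CER1, CYP26A1 and FGF17 are higher in APS than in MPS.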

How the data were processed

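RNA of whole cultures was sequenced as stranded, poly(A)-selected paired-end libraries. The deposited values are estimated counts per gene, which the authors made by quasi-mapping with Salmon 1.10.2 (sequence and GC bias correction) and summed in R 4.4.2, with GRCh38/hg38 named in the submitters' processing notes. The annotation release is not given in the sources used here. No column was left unmatched to a sample (0).

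Estimated counts were rounded and the 34 libraries of 17 conditions fitted together by edgeR 4.0.16 (limma 3.58.1, R 4.3.3) with TMM normalisation, edgeR's filter on low counts (17895 of 37951 genes kept) and a quasi-likelihood test of APS against the control, DE(a) and MPS. Calls were made at a Benjamini-Hochberg adjusted p of 0.05 over all genes tested. CPM were divided by library totals. Counts were also simulated for all 34 libraries, with the same spread for every gene and changes set in few genes of APS. There the test of APS against the control (16807 genes) called 97% of genes with a set change of 2 log2 units. It called 20% of those with a set change of 1 and 10 unchanged genes.

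The text names the 15 largest rises and falls by fold with at least 10 CPM in the higher group, the 5 largest in CPM, up to 4 called and the defining members of each list, and the 6 largest in each direct contrast. Other list members named were chosen after their values were seen. Some genes that this rule names are not reported here. Members and lists were chosen with earlier results of these data known. Alternatives were DESeq2 1.42.0, RLE size factors, library totals, no filter, a fold of at least 2, fewer libraries, a replicate block and leaving out each library. Tables and figures were made in Python 3.11.15. Genes with near-identical copies or several identifiers are uncertain.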

Additional observations from a re-analysis of the deposited data

Results flagged for a closer look

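A small number of genes passed the edgeR test in opposite directions against the control in APS and in another day 1 treatment, with the direct contrast also passing, and these treatments share the control libraries. Against DE(a) there were 2 such genes. PCDH19, a protocadherin, was at 13.6 and 11.7 CPM in the control, 27.5 and 25.1 CPM in APS (1.14 ± 0.26 on the log2 scale against the control) and 4.67 and 3.97 CPM in DE(a) (-1.45 ± 0.28), and the direct log2 difference of APS minus DE(a) was 2.59 (edgeR adjusted p = 2.03e-05). LAYN, a hyaluronan receptor, was at 4.34 and 5.80 CPM in the control, 11.7 and 9.98 CPM in APS (1.18 ± 0.28) and 2.28 and 2.09 CPM in DE(a) (-1.11 ± 0.29), and the direct difference was 2.29 (edgeR adjusted p = 0.000177). The LAYN call against the control was lost without control replicate 1 (edgeR adjusted p = 0.0708).

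Against MPS there were 4 such genes. RASGRP1, an exchange factor for Ras, was at 4.34 and 4.77 CPM in the control, 1.37 and 1.42 CPM in APS and 33.9 and 18.4 CPM in MPS, and the direct log2 difference of APS minus MPS was -4.24 (edgeR adjusted p = 6.88e-06). ACADSB, a mitochondrial acyl-CoA dehydrogenase, was at 21.3 and 22.1 CPM, 30.9 and 34.7 CPM and 9.80 and 8.52 CPM in the same order, with a direct difference of 1.82 (edgeR adjusted p = 1.98e-06). INKA2, an inhibitor of the kinase PAK4, was at 28.7 and 22.8 CPM, 12.9 and 14.4 CPM and 38.4 and 47.9 CPM, with a direct difference of -1.67 (edgeR adjusted p = 0.0014). TMEM47, a junctional membrane protein, was at 37.0 and 46.4 CPM, 25.7 and 27.4 CPM and 52.3 and 70.0 CPM, with a direct difference of -1.22 (edgeR adjusted p = 0.000363). The RASGRP1 call against the control was lost without either APS library (edgeR adjusted p = 0.0559 and 0.0583) and the ACADSB call without APS replicate 2 (0.0511). The INKA2 call was lost without each of the 4 libraries in turn (edgeR adjusted p from 0.06 to 0.24). The TMEM47 call was lost without APS replicate 1, APS replicate 2 or control replicate 2 (edgeR adjusted p = 0.115, 0.0725 and 0.269), and also with only the libraries compared (0.0651) or only control and 24 h libraries (0.0904). The opposite directions of these 4 genes rest on those calls.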

How the results depend on the processing

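No called gene changed sign under any alternative. The 4389 calls of APS against the control became 4810 with DESeq2, 4371 with RLE size factors, 4399 with library totals, 4438 without the filter, 3789 with only control and 24 h libraries and 3940 with only the libraries compared. With a test for a fold of at least 2 they became 1372 (809 higher and 563 lower), fewer by construction. Leaving out 1 library gave 3010 to 3423 calls, 1665 to 1976 higher and 1318 to 1447 lower. On library totals 48.1% of calls were higher, against 55.3%.

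Replicates 1 and 2 were deposited in separate tables. Whether the replicate numbers pair the libraries is not settled: the correlation of deviations of APS and the control was 0.0224, while 43 of 136 pairs of conditions were over 0.1, the highest at 0.34. A replicate block gave 5160 calls (2796 higher, 2364 lower), 194 against DE(a) and 704 against MPS. With only the libraries compared, a block chosen after seeing the data gave 3846 (1886 higher, 1960 lower).

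Against DE(a) the 131 calls became 250 with DESeq2, 570 without the filter, 25 at a fold of at least 2 and 73 with only the libraries compared, and 38 to 93 without 1 library. Against MPS the 524 became 803, 1144, 81 and 267, and 225 to 263. The cause was not tested. Of 203 named genes tested, 187 were called and 41 lost the call in an alternative other than the fold test, while of the 16 not called 8 gained one in at least 1 alternative. With 2 libraries a group, changes of 1 log2 unit were mostly not called in simulated data (20%). That simulation gave every gene the same spread and changed few genes, so the share does not measure the sensitivity of the real fit.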

Other observations

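Lists for other cell types that a day 1 culture could hold were also counted, where 24.5% of all genes tested were called. Of 11 primordial germ cell genes 1 was higher, SOX17 (0 without APS replicate 1 or either control library, edgeR), and 3 were lower (1 without APS replicate 2), among them TFAP2C, from 9.97 and 8.93 to 4.41 and 3.39 CPM (-1.20 ± 0.31). PRDM1 was not called against the control, at 2.49 and 0.744 CPM in the control and 3.55 and 1.97 CPM in APS (edgeR adjusted p = 0.0296 without the filter), and NANOS3 was not called. Of 15 extraembryonic endoderm genes 7 were higher (4 without either control library) and 2 lower (0 without either APS library, 1 without either control library, edgeR), but the higher ones are shared with streak derivatives (SOX17, GATA4, GATA6, PDGFRA) or are basement membrane genes (COL4A1, COL4A2), with CUBN beside them, and HNF4A, APOA1 and APOB were not called. PDGFRA, a receptor of mesoderm and primitive endoderm, rose from 8.01 and 12.3 to 60.5 and 31.5 CPM (2.26 ± 0.45). Of 12 blood and endothelial genes 2 were higher, LMO2 and RUNX1, LMO2 going from 0.993 and 1.06 to 5.21 and 14.8 CPM (3.36 ± 0.66). Of 11 naive pluripotency genes 3 were higher, KLF5, TBX3 and SUSD2, and 0 lower (1 without APS replicate 1). TBX3 is also a BMP target and went from 1.54 and 0.638 to 62.2 and 65.9 CPM (5.93 ± 0.33).

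Some genes are listed under more than 1 identifier, so reads of one gene could be split between them. CDK7 gave a log2 fold change of -6.17 ± 2.12 under one of its 2 identifiers, while the summed levels of 41.6 and 49.7 CPM in the control and 48.8 and 39.2 CPM in APS overlapped. IER3, an early response gene with 3 identifiers, summed to 7.56 and 6.78 CPM in the control and 198 and 149.5 CPM in APS, and EPHB6, a kinase-dead Eph receptor with 2, to 35.4 and 32.2 CPM in the control and 8.43 and 10.3 CPM in APS. DLL1, a Notch ligand with 2 identifiers, summed to 5.01 and 2.61 CPM in the control and 7.596 and 8.79 CPM in APS.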
